A study of Homo sapiens with 4 samples.

Results

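The unperturbed state of 2 human hepatocellular carcinoma lines, Huh7 and PLC/PRF/5, was described from their vector-control transcriptomes. A gene entered the description when its abundance in TPM, a transcript abundance scaled by transcript length and to a fixed total per library, was at least 1 in either control library. Of 25343 gene symbols, 14006 met this rule. Its threshold was crossed gradually: 156 genes had their higher control value from 1 to under 1.1 TPM, and 156 genes lay just outside it, from 0.9 to under 1 TPM. The Huh7 control and the PLC/PRF/5 control each carried a non-target short hairpin RNA (NTC), delivered by lentivirus and followed by puromycin selection, and both were grown in the same high-glucose medium with serum. In each line a further library came from cells with the hairpin shSCD1#13 against SCD1 (gene symbol SCD), the stearoyl-CoA desaturase. There was 1 library in each of the 4 groups, so the difference between the control libraries had no replicate check. All cells had therefore been transduced and selected, and no untransduced cells of either line were analysed here.

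Huh7 and PLC/PRF/5 are long-established epithelial lines from liver tumours, and PLC/PRF/5 carries integrated hepatitis B virus DNA. A mature hepatocyte secretes most plasma proteins, assembles lipoproteins, makes bile acids, detoxifies ammonia through the urea cycle and releases glucose. These programs are held in place by a network of transcription factors, among them HNF4A, the FOXA factors and CEBPA, while alpha-fetoprotein, IGF2 and DLK1 belong to the fetal liver and are often expressed again in liver cancer.

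The files held 13029 symbols at 1 TPM or more in the Huh7 control and 12637 in the PLC/PRF/5 control, and the 10 most abundant genes took 7.67% and 6.64% of all TPM. TPM keeps no record of read numbers, so the sequencing depth behind these values is unknown and no counting error could be given. SCD itself stood at 1755 TPM (Huh7) and 1111 TPM (PLC/PRF/5) in the controls and at 137.01 and 178 TPM with knockdown, as those labels state. The libraries come from bulk cultures, so fewer cells expressing a gene and less RNA of it per cell cannot be told apart.

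The lines differed widely. On the scale log2((PLC/PRF/5 TPM + 1)/(Huh7 TPM + 1)), 2090 of the 14006 genes (14.9%) were higher in PLC/PRF/5 by 2-fold or more and 2214 (15.8%) lower by as much, or 30.7% in either direction. The pseudocount of 1 understates the differences of genes with low values. The median difference over all genes was 0.03 and the median absolute difference 0.60. At least 4-fold differences were found for 714 genes in the higher and 861 in the lower direction, and 6858 genes (49.0%) differed by less than 1.5-fold. These are counts by size, not tests. Below, paired values give Huh7 first and PLC/PRF/5 second, in the controls unless the knockdown libraries are named, and limma counts follow the order of the counts before them. Counts of list members are to be read beside the shares of all genes, 14.9% higher and 15.8% lower.

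**Figure D1:**
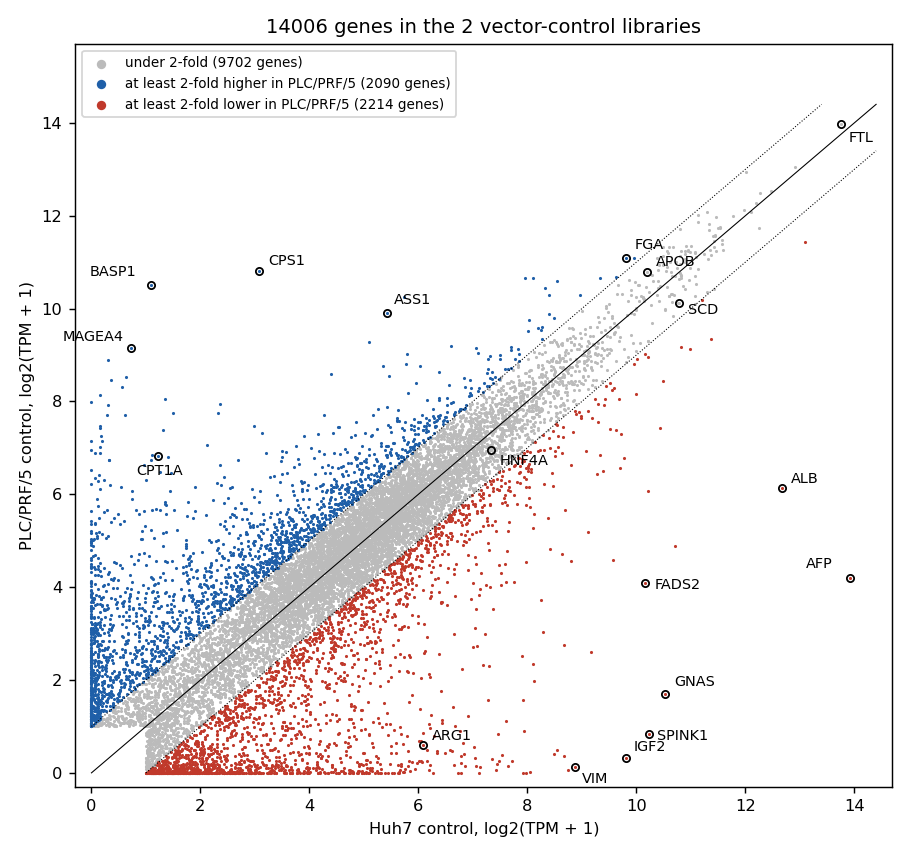
Each point is 1 of the 14006 genes, with its log2(TPM + 1) in the Huh7 control on the x axis and in the PLC/PRF/5 control on the y axis; the solid line marks equal values and the dotted lines a 2-fold difference. AFP, ALB, IGF2, SPINK1, VIM and GNAS lie far below the line and BASP1, CPS1, MAGEA4 and CPT1A far above it, while HNF4A, SCD, APOB and FTL lie between the dotted lines.

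The same line difference was also available between the knockdown libraries, which share no library with the controls. By the same size rule 2146 of 14214 genes (15.1%) were higher there in PLC/PRF/5 and 2222 (15.6%) lower. Of the genes higher in the PLC/PRF/5 control, 80.3% were at least 2-fold higher in the knockdown pair too, and of those lower, 80.2%. Read the other way, 78.2% and 79.9% of the knockdown pair's genes were also found in the controls. A limma fit of the line over all 4 libraries, with the arm as a term and 1 residual degree of freedom, called 4352 of 13813 genes (31.5%) higher and 3908 (28.3%) lower in PLC/PRF/5 at an adjusted p under 0.05. Its p-values measure how alike the line difference was in both arms, not the spread between replicate cultures, and with calls this common a called member is not unusual.

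The transcription factors of hepatocyte identity were present in both lines. HNF4A, the nuclear receptor that anchors this network, was at 159.6 TPM in Huh7 and 122 TPM in PLC/PRF/5. FOXA1 (70.7 and 62.7 TPM) and ONECUT1 (23.0 and 28.4 TPM) were also within 2-fold. Of the 24 factors in the set, 2 were higher and 9 lower in PLC/PRF/5 by 2-fold or more, with a median difference of -0.72 beside 0.03 for all genes, and limma called 3 higher and 15 lower. GATA6 and NR1H4 had the largest gaps. GATA6, an endodermal zinc-finger factor, was at 37.4 TPM in control Huh7 cells and listed at 0 in both PLC/PRF/5 libraries. NR1H4, the bile acid receptor FXR, stood at 133 TPM in Huh7 and 5.68 TPM in PLC/PRF/5, and at 99.0 and 0.44 TPM in the knockdown libraries. CEBPA, which restrains proliferation and drives metabolic genes, was at 444 TPM in Huh7 and 98.3 TPM in PLC/PRF/5 (line coefficient -2.50 ± 0.17, SE; limma, adjusted p = 0.000728). In the other direction, ATF5, a stress-responsive factor abundant in liver, was at 28.9 TPM in Huh7 and 117 TPM in PLC/PRF/5, and CREB3L3, a membrane-bound factor of lipid metabolism, at 32.0 and 102 TPM.

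Among the secreted plasma proteins, levels in the lines differed gene by gene. The stretches of 250 bases directly before the start sites of 3 plasma protein genes on chromosome 4 are shown because their products went different ways: albumin and alpha-fetoprotein, which lie next to each other, were far lower in PLC/PRF/5, and the fibrinogen alpha chain was higher there. The sequences are from RefSeq (GRCh38.p14, not the hg19 build of the expression files), and capitals mark the letters GTTAAT on either strand, which 6.23% of 35116 RefSeq promoter stretches of the same length hold.
ALB (chr4:73404037-73404286, plus strand): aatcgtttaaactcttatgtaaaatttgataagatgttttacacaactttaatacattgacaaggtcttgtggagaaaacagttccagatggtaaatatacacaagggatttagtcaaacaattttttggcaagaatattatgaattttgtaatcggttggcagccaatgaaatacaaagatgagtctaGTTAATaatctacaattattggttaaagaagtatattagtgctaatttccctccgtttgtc
AFP (chr4:73435971-73436220, plus strand): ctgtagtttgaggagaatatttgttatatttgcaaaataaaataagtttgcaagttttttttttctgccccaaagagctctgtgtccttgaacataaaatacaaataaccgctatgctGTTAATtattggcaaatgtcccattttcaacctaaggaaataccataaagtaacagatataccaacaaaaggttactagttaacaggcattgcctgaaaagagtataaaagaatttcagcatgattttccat
FGA (chr4:154590743-154590992, minus strand): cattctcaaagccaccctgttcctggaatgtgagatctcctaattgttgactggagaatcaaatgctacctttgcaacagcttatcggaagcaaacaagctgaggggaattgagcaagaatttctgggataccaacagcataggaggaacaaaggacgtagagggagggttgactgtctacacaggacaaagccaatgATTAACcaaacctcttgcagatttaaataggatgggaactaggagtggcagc
Each held these letters once, on the strand shown for ALB and AFP and on the opposite strand for FGA, starting 61, 132 and 52 bases before the start site. A letter match describes the sequence and does not show binding.

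ALB, the main protein of plasma, had 6498 TPM in control Huh7 cells and 69.3 TPM in control PLC/PRF/5 cells, and 10479 and 41.4 TPM with knockdown (line coefficient -7.24 ± 0.34, SE; limma, adjusted p = 0.000335). AFP, its fetal counterpart, was the most abundant transcript of the Huh7 control at 15421 TPM and stood at 17.2 TPM in PLC/PRF/5, with 10302 and 6.96 TPM in the knockdown libraries. FGA, by contrast, was at 894 TPM in Huh7 and 2184 TPM in PLC/PRF/5, and at 847 and 1563 TPM with knockdown. Both Huh7 libraries were thus above both PLC/PRF/5 libraries for ALB and AFP, and below both for FGA.

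Of 28 listed plasma protein genes, 24 were in the set: 2 were higher and 14 lower in PLC/PRF/5 by 2-fold or more, with a median of -1.72 in the controls and -2.47 in the knockdown pair, and limma called 3 higher and 18 lower. TTR, the thyroxine and retinol carrier, was at 371 TPM in Huh7 and 0.41 TPM in PLC/PRF/5, while its partner RBP4 was at 1801 and 572 TPM. GC, the vitamin D binding protein, was at 112 and 0.56 TPM. HP, haptoglobin, was at 31.9 TPM in Huh7 and listed at 0 in PLC/PRF/5, and SERPINC1, antithrombin, was at 79.8 and 0.35 TPM. Other secreted proteins were abundant in both lines. TF, transferrin, was at 1619 TPM in Huh7 and 1125 TPM in PLC/PRF/5, SERPINA1, alpha-1-antitrypsin, at 2528 and 1303 TPM, and VTN, vitronectin, at 659 and 621 TPM. CP, the copper oxidase ceruloplasmin, was at 64.3 TPM in Huh7 and 433 TPM in PLC/PRF/5, the largest difference of the list toward PLC/PRF/5. The 3 fibrinogen chains were all abundant in both lines but not in step: beside FGA, FGG was at 927 and 1567 TPM and FGB at 901 and 459 TPM. Summed over the 24 genes, the list held 21310 TPM in Huh7 and 9509 TPM in PLC/PRF/5.

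**Figure D2:**
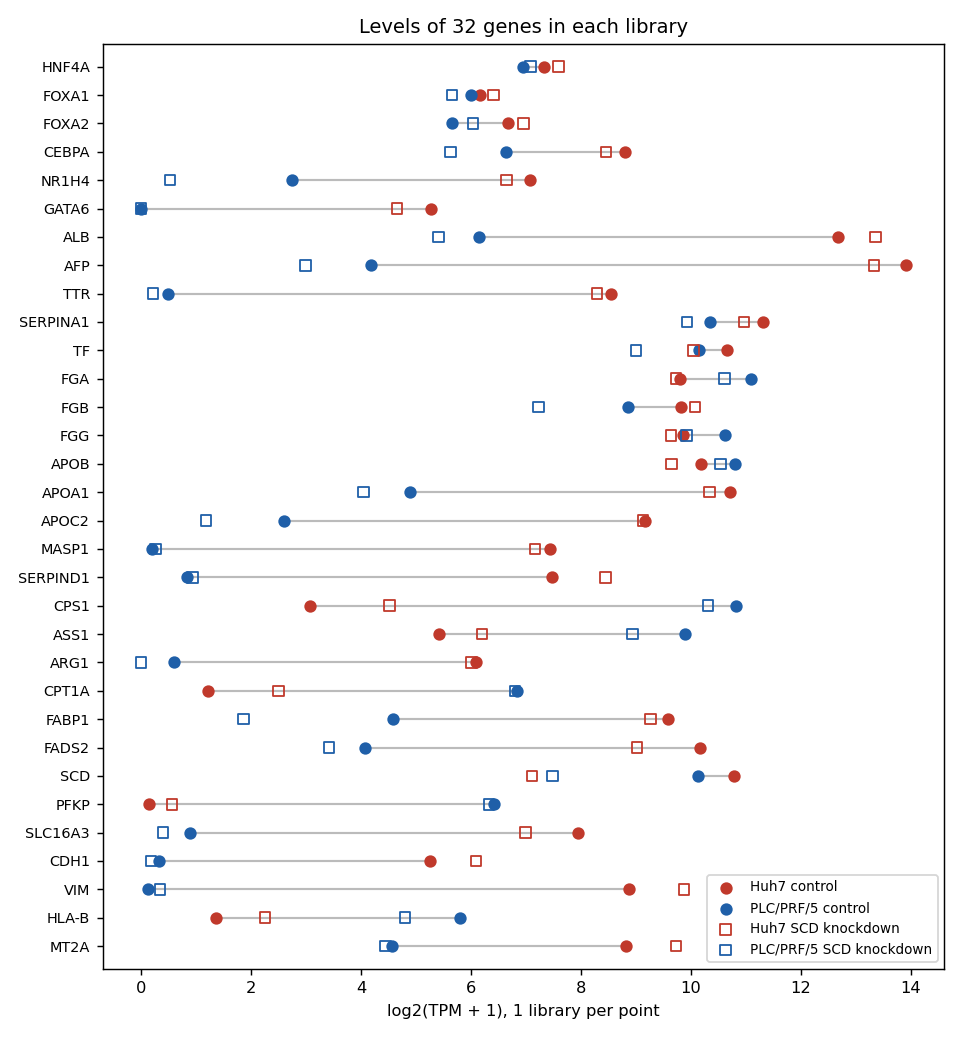
Levels of 32 genes in each of the 4 libraries as log2(TPM + 1) on the x axis, with filled circles for controls, open squares for SCD knockdown, red for Huh7 and blue for PLC/PRF/5; grey lines join the controls. HNF4A and FOXA1 lie close together, ALB, AFP, TTR, APOA1 and MASP1 lie far to the right in Huh7, and CPS1, ASS1, CPT1A and PFKP far to the right in PLC/PRF/5.

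Lipoprotein genes were uneven too. None of 13 members was at least 2-fold higher in PLC/PRF/5 and 7 were lower (median -1.40; limma, 1 higher and 9 lower). APOB, the structural protein of very low density lipoprotein, was at 1165 TPM in Huh7 and 1780 TPM in PLC/PRF/5, and MTTP, which loads lipid onto it, at 159 and 112 TPM. APOE was at 1186 and 633 TPM. APOA1, the main protein of high density lipoprotein, was at 1672 and 28.6 TPM, and APOC2, the activator of lipoprotein lipase, at 572 and 5.08 TPM. The scaffold of the particle was thus at a comparable level while several exchangeable apolipoproteins were not. APOC1 (736 and 549 TPM) shares 50.8% of the 31-base words in its transcript with other genes, and its value is less certain, as reads from such stretches cannot be placed.

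Coagulation and complement genes were lower in PLC/PRF/5 in larger shares than all genes (15.8%). Of 20 coagulation and fibrinolysis genes 12 were at least 2-fold lower and none higher (median -1.77; limma, 1 higher and 14 lower). SERPIND1, heparin cofactor II, was at 176 TPM in Huh7 and 0.78 TPM in PLC/PRF/5, SERPINA5, the protein C inhibitor, at 276 and 2.92 TPM, and CPB2, a fibrinolysis inhibitor, at 155 and 3.93 TPM. Prothrombin, F2, was at 153 and 102 TPM and the inhibitor TFPI at 119.7 and 167 TPM, both within 2-fold. Of 21 complement genes 16 were at least 2-fold lower and 2 higher (median -1.62; limma, 16 lower and 3 higher). MASP1, a lectin pathway protease, was at 173 TPM in Huh7 and 0.15 TPM in PLC/PRF/5, and CFI, factor I, at 45.9 and 0.91 TPM. C3, the hub of the cascade, was at 286 and 494 TPM in the controls but at 724 and 401 TPM in the knockdown libraries, so its order depended on the arm. C8G, a lipocalin subunit of the attack complex, went the other way, at 0.67 TPM in Huh7 and 66.5 TPM in PLC/PRF/5. Of these genes 5, C2, C4A, CFB and CFI among them, share at least 50.5% of their words with other genes, and without the 5 the median of the remaining 16 was -1.54.

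Several fetal and oncofetal genes, but not all, were lower in PLC/PRF/5. Of 15 members, 2 were at least 2-fold higher and 8 lower in PLC/PRF/5, with a median of -1.37 in the controls and -0.53 in the knockdown pair (limma, 2 higher and 9 lower). IGF2, a fetal growth factor, was at 901 TPM in Huh7 and 0.25 TPM in PLC/PRF/5. DLK1, a membrane protein of hepatoblasts, was at 428 and 0.04 TPM, and GPC3, a proteoglycan used as a tumour marker, at 1182 and 66.3 TPM. The RNA-binding proteins that act in the same fetal program were expressed in both lines: IGF2BP1 was at 209 and 122 TPM, IGF2BP3 at 59.4 and 41.8 TPM, and LIN28B, which blocks let-7 maturation, at 249.8 and 93.7 TPM. SALL4, a stem cell zinc-finger factor, was at 3.90 TPM in Huh7 and 16.7 TPM in PLC/PRF/5. H19 was at 0.39 and 11.9 TPM in the controls, and its PLC/PRF/5 value in the knockdown library was 1.44 TPM.

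Biliary and progenitor markers were also lower in PLC/PRF/5: 9 of 14 were at least 2-fold lower and 3 higher (median -1.47; limma, 9 and 3). EPCAM, an adhesion molecule of progenitors, was at 50.1 TPM in Huh7 and 0.11 TPM in PLC/PRF/5. PROM1, which encodes CD133, was at 131 and 0.25 TPM, and KRT19, a ductal keratin, at 274 and 4.11 TPM. SOX9, a ductal transcription factor, was at 171 and 35.9 TPM. KRT23 (10.2 and 104.5 TPM) and ITGB4, an integrin of hemidesmosomes (1.60 and 11.2 TPM), were the members with the largest differences toward PLC/PRF/5. CD24, a surface glycoprotein, was abundant in both at 1141 and 517 TPM. KRT7 was listed at 0 in Huh7 and was at 0.29 TPM in PLC/PRF/5, below the entry threshold.

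Epithelial and mesenchymal genes did not separate the lines along a single axis. CDH1, epithelial cadherin, was at 37.3 TPM in Huh7 and 0.25 TPM in PLC/PRF/5. CDH2, the neural cadherin usually gained when CDH1 is lost, was at 36.0 TPM in Huh7 and listed at 0 in PLC/PRF/5. VIM, the mesenchymal intermediate filament, was at 467 and 0.09 TPM, with 936 and 0.27 TPM in the knockdown libraries. The PLC/PRF/5 control thus had little transcript of either classical cadherin or of vimentin. The main keratins and a tight junction gene were abundant in both lines: KRT18 was at 1548 TPM in Huh7 and 1229 TPM in PLC/PRF/5, KRT8 at 2347 and 1159 TPM, and the claudin CLDN1 at 256 and 732 TPM. Of 20 epithelial genes 4 were at least 2-fold higher and 6 lower (median -0.09; limma, 6 and 7). Of 22 mesenchymal and matrix genes 3 were higher and 12 lower (median -1.16; limma, 3 and 12). THBS1, a matricellular glycoprotein, was at 72.3 and 1.06 TPM, LOX, a collagen cross-linking oxidase, at 131 and 7.76 TPM, and FN1, fibronectin, at 1439 and 348 TPM. AXL, a receptor tyrosine kinase, was at 0.57 TPM in Huh7 and 14.8 TPM in PLC/PRF/5, and the factor TWIST2 was listed at 0 in both Huh7 libraries and was at 5.19 and 2.29 TPM in PLC/PRF/5.

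Many drug-metabolising enzymes were below the entry threshold in both lines. Only 8 of 19 listed xenobiotic cytochrome P450 genes entered the set, and CYP3A4, the main drug-metabolising enzyme of adult liver, was at 0.07 TPM in Huh7 and 0.11 TPM in PLC/PRF/5. CYP1A1, an aryl hydrocarbon receptor target, was the highest of the list on average over the controls, at 68.2 and 48.3 TPM, and CYP2S1 stood out toward PLC/PRF/5 at 1.01 and 77.9 TPM. Of 30 conjugation enzymes 5 were at least 2-fold higher and 9 lower (median 0.00; limma, 7 and 12). UGT1A1, the bilirubin-conjugating enzyme, was at 1.38 TPM in Huh7 and 88.5 TPM in PLC/PRF/5. SULT2A1, the bile acid and steroid sulfotransferase, was at 48.4 and 0.13 TPM, and GSTA1, a liver glutathione transferase, at 16.5 and 0.35 TPM. UGT1A1 and GSTA1 share 36.9% and 49.0% of their words with other genes, so their values are less certain. GSTP1, usually low in normal hepatocytes, was abundant in both at 1622 and 2583 TPM. CYP7A1, the rate-limiting enzyme of bile acid synthesis, was listed at 0 in both controls. In the bile acid list 4 of 17 genes were at least 2-fold higher and 9 lower (limma, 4 and 8). Its median was -1.55 in the controls, -0.58 in the knockdown pair and -0.08 when AMACR and SLCO1B3, which share 63.3% and 67.8% of their words with other genes, were left out. CYP27A1, a sterol hydroxylase, was at 26.0 and 0.03 TPM, and ABCB4, the phospholipid floppase of bile, at 14.5 and 0.09 TPM. HSD3B7, another synthesis enzyme, was at 19.3 and 97.8 TPM and the export pump ABCC2 at 42.6 and 178 TPM. FGF19, the hormone that signals bile acid load, was at 70.3 and 0.40 TPM, and its co-receptor KLB at 84.5 and 11.6 TPM, whereas its receptor FGFR4 was at 334 and 317 TPM (limma, adjusted p = 0.195).

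Urea cycle enzymes differed between the lines in both directions. CPS1, which takes up ammonia in the first step, was at 7.41 TPM in Huh7 and 1799 TPM in PLC/PRF/5, and at 21.8 and 1267 TPM in the knockdown libraries (line coefficient 6.77 ± 0.46, SE; limma, adjusted p = 0.000682). OTC, the second step, was at 1.33 and 0.23 TPM. ASS1, the third step, was at 41.8 and 953 TPM, and ASL, the fourth, at 81.2 and 74.6 TPM. ARG1, which releases urea, was at 66.9 and 0.51 TPM, and NAGS, which makes the activator of CPS1, at 14.6 and 1.01 TPM. CPS1 and ASS1 were thus higher in PLC/PRF/5. ARG1 and NAGS were higher in Huh7, but at far lower levels than CPS1 and ASS1 reached in PLC/PRF/5. Neither line had more than a low OTC level. Over the 27 urea cycle and amino acid genes 10 were at least 2-fold higher and 5 lower in PLC/PRF/5 (median 0.33 in the controls, -0.11 in the knockdown pair; limma, 12 and 10). HGD, an enzyme of tyrosine breakdown, was at similar levels at 177 and 149 TPM. HAL, histidine ammonia-lyase, was at 4.56 and 37.2 TPM in the controls but at 6.97 and 1.73 TPM in the knockdown libraries.

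Glucose metabolism differed at selected steps. Of 13 liver-type genes 6 were at least 2-fold higher and 3 lower in PLC/PRF/5 (median 0.25; limma, 6 and 4). PCK1, the cytosolic gate of gluconeogenesis, was at 0.13 and 12.6 TPM, and G6PC, which releases free glucose, at 0.12 and 6.85 TPM, so both were low even where higher. PC, pyruvate carboxylase, was at 197 and 26.5 TPM. FBP1, a further enzyme of gluconeogenesis, was at 2.98 TPM in Huh7 and 0.04 TPM in PLC/PRF/5. Of 24 widely expressed glycolysis genes 7 were higher and 4 lower (median 0.21; limma, 10 and 7). The lines had different isoforms and transporters: PFKP, the platelet-type phosphofructokinase, was at 0.10 TPM in Huh7 and 84.8 TPM in PLC/PRF/5, while PFKL (99.4 and 111 TPM) and PFKM (71.8 and 78.6 TPM) were alike in level. SLC16A3, the lactate exporter MCT4, was at 244 and 0.86 TPM, and the other exporter SLC16A1 at 130 and 69.0 TPM. SLC2A3, a high-affinity glucose transporter, was at 0.23 and 33.5 TPM and the hexokinase-like HKDC1 at 0.88 and 31.8 TPM. GAPDH was at 4118 and 7842 TPM.

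Most fatty acid synthesis genes were at similar levels, with single exceptions. Of 20 fatty acid synthesis genes 1 was at least 2-fold higher and 2 lower in PLC/PRF/5, and 17 were within 2-fold (median -0.18; limma, 5 and 6). SCD did not pass the 4-library fit (line coefficient -0.14 ± 0.25, SE; limma, adjusted p = 0.645), in which the knockdown acts on this gene itself. FASN, the fatty acid synthase, was at 694 and 323 TPM. FADS2, the delta-6 desaturase of polyunsaturated fatty acids, was at 1147 TPM in Huh7 and 15.9 TPM in PLC/PRF/5, with 517 and 9.67 TPM in the knockdown libraries, while its neighbour in the same pathway, FADS1, was at 294 and 205 TPM. ELOVL3, an elongase, was at 1.55 and 13.8 TPM.

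Among triglyceride and droplet genes more were lower than higher in PLC/PRF/5: 9 of 19 were lower and 3 higher by 2-fold or more (median -0.71; limma, 9 and 3). DGAT2, which makes triglyceride from newly made fatty acids, was at 67.5 and 8.22 TPM, and GPAM, which starts glycerolipid synthesis, at 57.6 and 16.8 TPM. PLIN2, the main droplet coat of hepatocytes, was at 173 and 106 TPM. LIPE, the hormone-sensitive lipase, was listed at 0 in Huh7 and was at 4.23 TPM in PLC/PRF/5.

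Of 25 cholesterol synthesis and uptake genes none was at least 2-fold higher and 12 were lower in PLC/PRF/5, with a median of -0.98. In the knockdown pair 5 were lower and none higher, with a median of -0.24, and limma called 13 lower and 3 higher. HMGCS1, which makes the precursor of mevalonate, was at 645 and 114 TPM, and EBP, a late sterol isomerase, at 618 and 85.5 TPM. FDFT1, the squalene synthase, was at 349 and 87.3 TPM. INSIG1, a sterol-sensing brake, was at 164 and 66.0 TPM in the controls and at 126 and 175 TPM in the knockdown libraries, so the order of the lines for this gene depended on the arm.

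Fatty acid oxidation genes included large differences in both directions. CPT1A, the liver gate for fatty acid entry into mitochondria, was at 1.32 TPM in Huh7 and 113 TPM in PLC/PRF/5, and at 4.65 and 110.3 TPM in the knockdown libraries (line coefficient 4.96 ± 0.33, SE; limma, adjusted p = 0.000671). CPT1B was at 9.22 and 5.03 TPM, but shares 94.2% of its words with other genes. ACADM, the medium-chain dehydrogenase, was at 57.4 and 179.9 TPM. FABP1, the liver fatty acid binding protein, was at 761 TPM in Huh7 and 23.1 TPM in PLC/PRF/5, and at 612 and 2.64 TPM in the knockdown libraries (line coefficient -6.19 ± 0.56, SE; limma, adjusted p = 0.00133). EHHADH of the peroxisome was at 27.4 and 4.83 TPM. Of 28 genes 4 were higher and 7 lower (median -0.21; limma, 8 and 13).

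**Figure D3:**
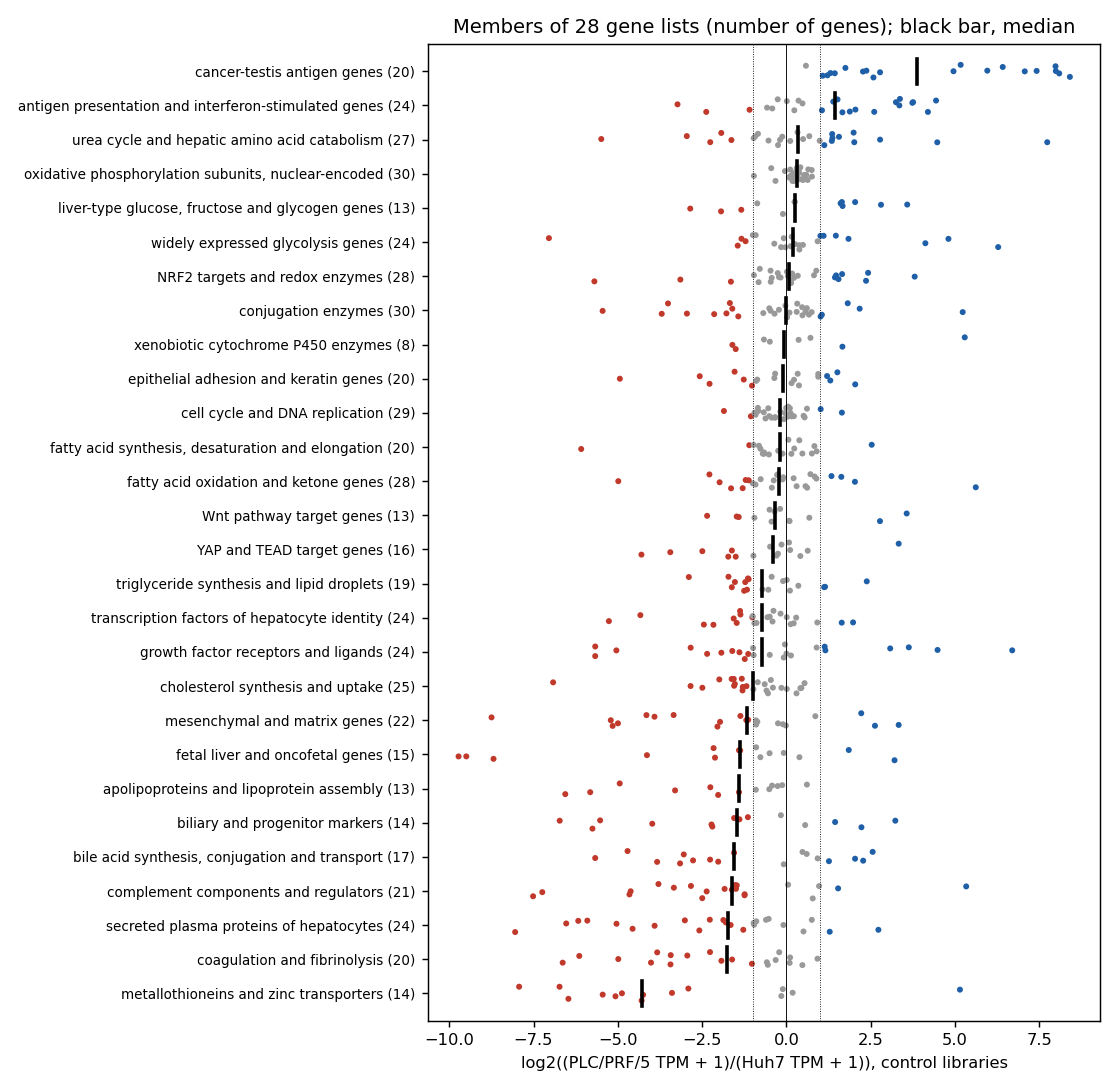
Log2 differences between the controls (x axis, PLC/PRF/5 minus Huh7) for members of 28 gene lists, with the list size in brackets, blue and red points at least 2-fold higher and lower in PLC/PRF/5, and a black bar at each median. Medians run from -4.27 for metallothioneins and zinc transporters to 3.87 for cancer-testis genes, and the 30 oxidative phosphorylation genes all lie within 2-fold.

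Metallothioneins, small zinc-binding and metal-buffering proteins encoded side by side on chromosome 16, were the list with the lowest median (-4.27; 10 of 14 at least 2-fold lower and 1 higher in PLC/PRF/5; limma, 10 and 1). The 250 bases before the start sites of MT2A, MT1X and MT1H are shown because the first pair kept a measurable level in PLC/PRF/5 and the last was listed at 0 there. Capitals mark the core of the metal response element bound by MTF1, searched as TGCACNC and TGCGCNC on both strands, overlaps included, which 9.87% and 16.8% of the RefSeq promoter stretches hold (24.8% hold either).
MT2A (chr16:56608334-56608583, plus strand): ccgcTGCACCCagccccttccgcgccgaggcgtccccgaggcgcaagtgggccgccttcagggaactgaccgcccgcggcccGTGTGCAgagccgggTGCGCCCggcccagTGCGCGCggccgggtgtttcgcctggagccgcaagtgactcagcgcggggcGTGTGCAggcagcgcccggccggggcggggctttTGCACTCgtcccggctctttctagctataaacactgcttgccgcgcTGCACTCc
MT1X (chr16:56682220-56682469, plus strand): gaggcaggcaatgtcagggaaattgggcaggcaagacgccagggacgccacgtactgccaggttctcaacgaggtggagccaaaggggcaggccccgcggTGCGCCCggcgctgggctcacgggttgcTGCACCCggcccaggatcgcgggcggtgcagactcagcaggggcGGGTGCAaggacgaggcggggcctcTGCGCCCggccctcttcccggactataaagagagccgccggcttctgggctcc
MT1H (chr16:56669564-56669813, plus strand): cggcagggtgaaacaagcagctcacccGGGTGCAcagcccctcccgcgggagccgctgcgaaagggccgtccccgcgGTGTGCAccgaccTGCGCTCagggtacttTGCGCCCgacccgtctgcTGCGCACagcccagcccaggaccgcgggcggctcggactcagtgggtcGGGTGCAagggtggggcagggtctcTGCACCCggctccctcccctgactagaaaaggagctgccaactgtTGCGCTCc
The cores were matched 7 times in MT2A, 4 times in MT1X and 8 times in MT1H. MT2A was at 448 TPM in Huh7 and 22.6 TPM in PLC/PRF/5, and MT1X at 126 and 16 TPM. MT1H was at 32.6 TPM in Huh7, and MT1E, the highest MT1 gene of Huh7, at 242 TPM, and both were listed at 0 in the PLC/PRF/5 control, as were MT1G and MT1M. The metallothionein genes share sequence as well, at most 25.6% of the words (MT1H), so their single values are less certain than their common direction. MTF1 was at 8.62 and 7.95 TPM, and the zinc exporter SLC30A1, a target of the same factor, at 41.5 and 47.4 TPM. SLC39A4, an intestinal-type zinc importer, was the single member at least 2-fold higher in PLC/PRF/5, at 0.68 and 58.7 TPM.

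Redox and iron genes included differences in both directions. Of 28 NRF2 targets and redox enzymes 7 were at least 2-fold higher and 3 lower, beside 14.9% and 15.8% of all genes (median 0.09; limma, 6 and 7). FTL, the ferritin light chain, was the most abundant transcript of the PLC/PRF/5 control (13834 TPM in Huh7 and 16176 TPM in PLC/PRF/5), and FTH1, the heavy chain, was at 8707 and 2785 TPM, with 50.8% of its words shared with other genes. AKR1B10, an aldo-keto reductase often high in liver tumours, was at 154 and 1.99 TPM, and AKR1C1 at 835 and 93.7 TPM. HMOX1, heme oxygenase, was at 27.7 and 153 TPM. GPX2, a glutathione peroxidase, was at 114 and 361 TPM in the controls and at 261 and 219 TPM in the knockdown libraries.

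Receptors of the EGF family were at similar levels, while several ligands and binding proteins differed widely. EGFR was at 99.0 TPM in Huh7 and 70.1 TPM in PLC/PRF/5, ERBB2 at 49.7 and 48.3 TPM and ERBB3 at 139 and 153 TPM. AREG, amphiregulin, a ligand of EGFR, was at 6.89 and 176 TPM, and EREG, epiregulin, at 2.63 and 44.1 TPM. In the IGF family IGFBP1, a hormone-regulated hepatic binding protein, was at 1.54 and 264 TPM, whereas IGFBP2 was at 119 and 1.35 TPM and IGFBP4 at 33.6 and 0.05 TPM. The 2 lines thus expressed different binding proteins, and IGF2R was at 99.8 and 100.2 TPM. Over 24 genes 6 were at least 2-fold higher and 10 lower (median -0.73; limma, 4 and 10). Of 13 Wnt targets 2 were higher and 3 lower, beside 14.9% and 15.8% of all genes (median -0.35 in the controls, 0.51 in the knockdown pair; limma, 3 and 3). LEF1, a transcription factor of that pathway, was at 0.13 and 12.4 TPM, and AXIN2 was at 4.22 and 3.10 TPM. Of 16 YAP and TEAD targets 1 was higher and 6 lower (median -0.39; limma, 2 and 8), with ANKRD1 at 55.7 and 1.88 TPM and CTGF at 232 and 75.1 TPM.

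Many genes of the list of antigen presentation and interferon-stimulated genes were higher in PLC/PRF/5. Of its 24 genes 14 were at least 2-fold higher and 3 lower, with a median of 1.46 in the controls and 0.99 in the knockdown pair (limma, 13 and 3). HLA-B was at 1.56 TPM in Huh7 and 54.7 TPM in PLC/PRF/5, and HLA-C at 13.9 and 153 TPM. B2M, the shared light chain, was at 475 and 480 TPM. TAP1, a subunit of the peptide transporter, was at 0.68 and 16.2 TPM, and HLA-DMB, a class II peptide editor, at 0.31 and 16.8 TPM, while CD74, the class II chaperone, was at 11.6 and 0.34 TPM and HLA-DRA was listed at 0 in both. Interferon-stimulated genes differed among themselves: OAS1 was at 1.59 and 46.7 TPM and IFITM3 at 95.7 and 589 TPM, but ISG15 was at 33.0 and 24.5 TPM and IFIT3 at 1.96 and 0.39 TPM.

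Cancer-testis genes, normally silent outside the germ line and mostly X-linked, were higher in PLC/PRF/5. Of 20 members 19 were at least 2-fold higher there and none lower, beside 14.9% of all genes (limma, 20 higher). The median was 3.87 in the controls and 4.67 in the knockdown pair. Of 24 listed genes among the symbols, 13 were at 0 in the Huh7 control. Such a gene can enter only through PLC/PRF/5 and is then at least 2-fold higher by the rule. The count of higher members was thus partly set by entry. MAGEA4 was at 0.66 TPM in Huh7 and 565 TPM in PLC/PRF/5, CTAG2 at 0.29 and 352 TPM, and MAGEA10 at 0.11 and 68.2 TPM. MAGEA2 was listed at 0 in both Huh7 libraries and was at 253 and 275 TPM in PLC/PRF/5. Several of these genes exist as near-identical copies among which reads cannot be placed (MAGEA2, SSX2 and SSX4 share 100% of their words, CTAG2 52.1%). Without 9 such members, 10 of the remaining 11 were higher, with a median of 2.58. PRAME, which is autosomal, was at 13.9 and 76.5 TPM.

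Respiration and proliferation genes were mostly within 2-fold. All 30 nuclear-encoded oxidative phosphorylation subunits were within 2-fold (median 0.31; limma, 16 higher and 3 lower), from NDUFV1 at 370 and 189 TPM to COX6B1 at 451 and 765 TPM. Of 29 cell cycle and replication genes 25 were within 2-fold (median -0.18; limma, 4 higher and 12 lower). MKI67, the proliferation marker, was at 120.3 and 114 TPM (limma, adjusted p = 0.867). RB1, the retinoblastoma tumour suppressor, was the lowest of the list in PLC/PRF/5 relative to Huh7, at 76.5 and 20.5 TPM, and 89.8 and 19.8 TPM in the knockdown libraries (line coefficient -1.99 ± 0.12, SE; limma, adjusted p = 0.000565). It is 1 of 5 neighbours in the set on chromosome 13, from MED4 to RCBTB2, that were all at least 2-fold lower in PLC/PRF/5.

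Some genes were abundant in a single line. A level of 50 TPM or more with under 1 TPM in the other line was found for 66 genes in the Huh7 control and 35 in the PLC/PRF/5 control, of 3681 and 3770 genes at 50 TPM or more. The same rule held in the knockdown libraries for 47 and 30 of them. Beside the genes above, those in Huh7 included SPINK1, a secreted trypsin inhibitor (1208 and 0.78 TPM), S100A11, a calcium-binding protein (359 and 0.33 TPM), CLDN6, an embryonic claudin (171 and 0.05 TPM), and COL2A1, a cartilage collagen (265 and 0.02 TPM). PTGR1, a prostaglandin reductase, was at 250.5 TPM in Huh7 and listed at 0 in PLC/PRF/5. Chosen after their values were seen, BID, a BH3-only apoptosis gene (75.8 TPM), and CTSZ, a lysosomal protease (138 TPM), were likewise listed at 0 in the PLC/PRF/5 control, and HAMP, the iron hormone hepcidin, was at 114 and 0.32 TPM. In PLC/PRF/5 they included SPINT2, a membrane serine protease inhibitor (0.47 and 318 TPM), CNTN1, a neural adhesion molecule (0.12 and 176 TPM), and the noncoding RNA DSCAM-AS1 (0.55 and 369 TPM). MSN, moesin, which links actin to the membrane (0.14 and 140.0 TPM), and CCK, a gut peptide hormone (0.05 and 118 TPM), were chosen after their values were seen. BASP1, a membrane-bound brain protein, had the largest difference toward PLC/PRF/5, at 1.12 and 1463 TPM, and narrowly missed this rule in Huh7. GNAS, the stimulatory G protein alpha subunit, was at 1470.3 and 2.26 TPM and missed it in PLC/PRF/5. The 66 and 35 genes counted are not all independent. Among them CTAG1A, CTAG1B and SMN2 share 92.3%, 91.8% and 98.0% of their words with other genes, and SNURF shares its transcript with SNRPN.

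Differences were also unevenly placed along chromosomes. Of the 14006 symbols 98.0% could be placed by RefSeq (GRCh38.p14), which was used for names and neighbour order only. Chromosome 13 had the lowest median difference, -0.51 over 232 genes, with 72 of them at least 2-fold lower and 28 higher in PLC/PRF/5. The knockdown pair gave -0.47. Chromosomes 20 and 3 followed with -0.23 and -0.21. The X chromosome had the highest median, 0.38 over 498 genes, with 31.1% higher and 12.2% lower, and the knockdown pair gave 0.35. After leaving out 40 genes of cancer-testis families, 25.3% of the other 458 X-linked genes were still at least 2-fold higher in PLC/PRF/5, with a median of 0.28. Of those 458 genes, 48 (10.5%) were under 0.1 TPM in Huh7 and at least 1 TPM in PLC/PRF/5, compared with 2.26% of the 13222 autosomal genes, and 20 (4.37%) showed the opposite pattern, compared with 4.05% on autosomes.

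Some neighbouring genes differed together. There were 90 runs of at least 4 neighbours in the set that all differed at least 2-fold in 1 direction. They held 485 of the 13720 placed genes, some of them overlapping entries such as INO80B-WBP1. In the run from SNORA25 to SNORA40, 1 of 5 genes kept 2-fold in the knockdown pair. Of 10 runs of at least 8 genes, 5 were on the X chromosome. Among these, the runs from GAGE12J to GAGE4, MAGEA10 to MAGEA6 and NUDT11 to FAM156A hold cancer-testis genes. Many of those share most of their words with other genes, up to 100% (GAGE12B, MAGEA2, SSX2), so they are not independent. The genes named from runs were chosen after their values were seen. On chromosome X, 12 neighbours from SPIN3 to ZC3H12B were all higher in PLC/PRF/5, and 11 of them were under 0.1 TPM in Huh7: AMER1, a negative regulator of Wnt signalling, was at 0.04 and 8.05 TPM, and ZC4H2, a zinc-finger gene, was listed at 0 in Huh7 and was at 10.5 TPM in PLC/PRF/5. All 12 were at least 2-fold higher in the knockdown pair too. On chromosome 14, 13 neighbours from PRKD1 to EGLN3 were lower in PLC/PRF/5, with none under 0.1 TPM: ARHGAP5, a GTPase-activating protein, was at 395 and 25.1 TPM and SCFD1, a vesicle transport protein, at 276 and 46.7 TPM. A run of 9 genes was the metallothionein cluster from MT2A to MT1X, all of them also lower in the knockdown pair by 2-fold or more, while NUDT21, OGFOD1, BBS2 and NUP93 beside it were within 2-fold. On chromosome 11, 10 neighbours from RBM4B to ANKRD13D, PC among them, were lower in PLC/PRF/5, with a median of -1.82. On chromosome 15, 6 neighbours from NDN to IPW were at most 0.11 TPM in Huh7, and SNRPN was at 117 TPM in PLC/PRF/5. SNURF shares its transcript with SNRPN, so those are not independent. The longest run lay over the protocadherin clusters of chromosome 5, 14 genes from PCDHA4 to PCDHGC3, 12 of them under 0.1 TPM in PLC/PRF/5, with TAF7, a general transcription factor subunit that is no protocadherin, among them at 74.3 and 18.9 TPM. The alpha and gamma protocadherins share constant exons within their clusters, so their values are not independent.

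**Figure D4:**
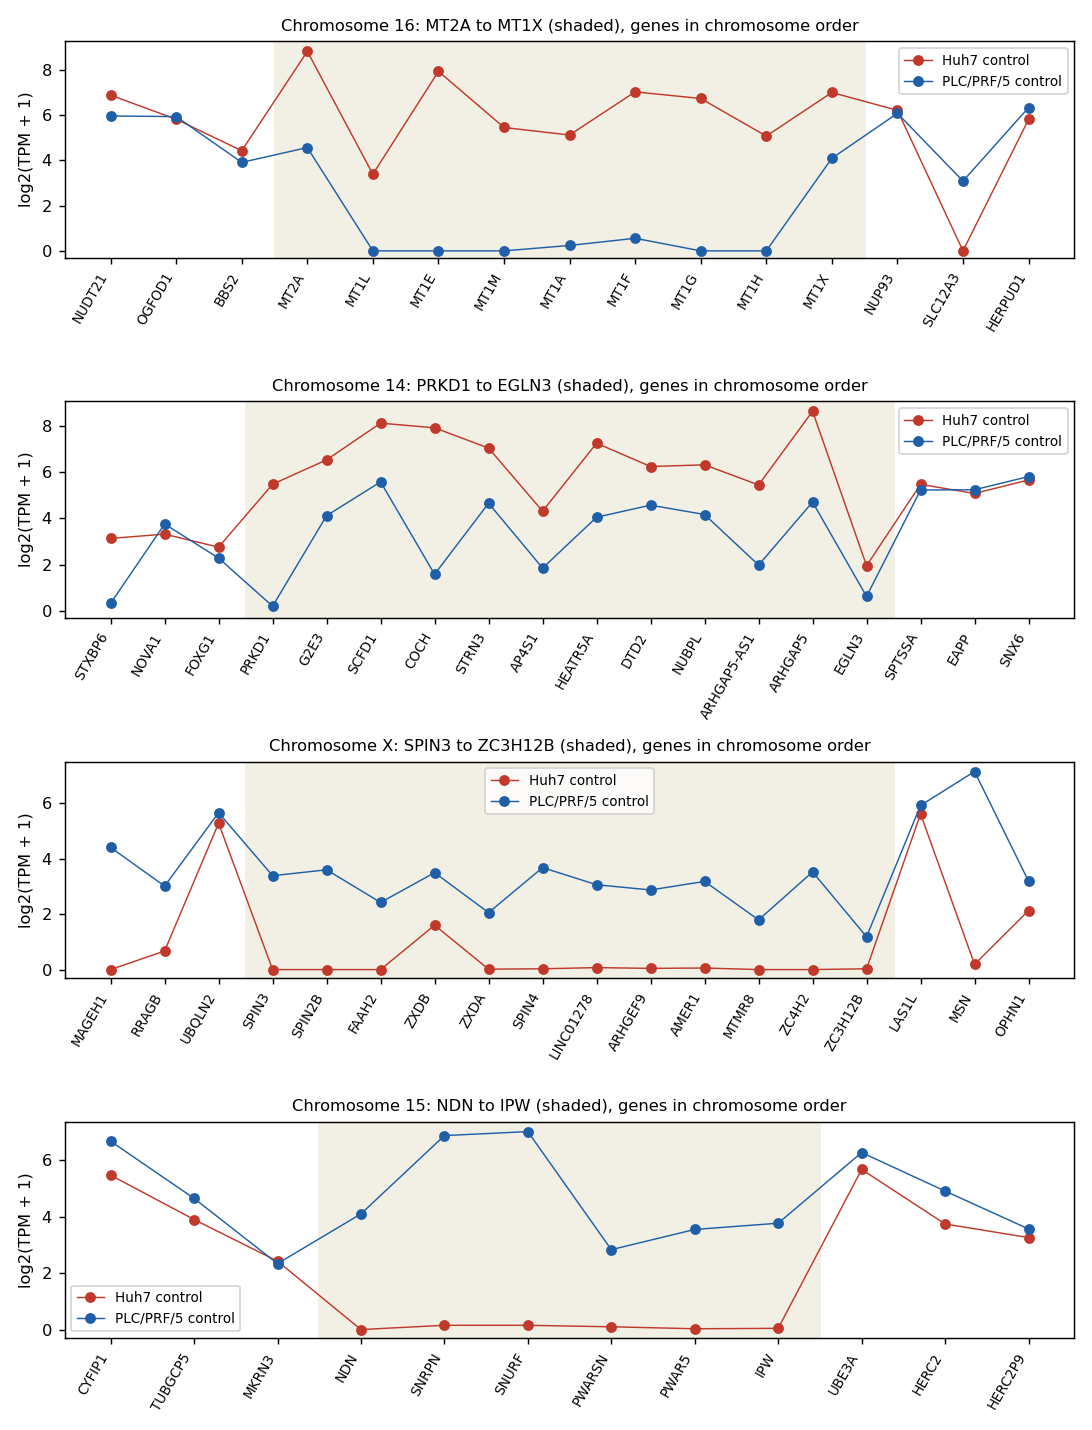
Levels (log2(TPM + 1), y axis) in the Huh7 (red) and PLC/PRF/5 (blue) controls for genes in chromosome order (x axis, not to distance; lines only join neighbours) across 4 runs, shaded, with 3 genes of the set on each side; 1 gene of the chromosome 14 run is not drawn. Flanking genes such as UBE3A, LAS1L, NUP93 and SNX6 are at similar levels in both lines, others such as MSN, SLC12A3 and STXBP6 are not, and the shaded genes are apart.

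The markers of other cell types were read as a check of purity. The 13 hepatocyte markers were all in the set and summed to 34382 TPM in Huh7 and 7381 TPM in PLC/PRF/5. AFP (15421 and 17.2 TPM) and ALB (6498 and 69.3 TPM) made up most of the Huh7 sum. By 2-fold or more, 6 of the 13 were lower in PLC/PRF/5, and 7 were within 2-fold. The cholangiocyte markers in the set, 5 of 7, summed to 843 and 557 TPM. Of 8 endothelial markers KDR, TIE1, TEK, STAB2 and CLEC4M were listed at 0 in both controls, and PECAM1 alone entered the set, at 1.97 and 3.35 TPM. Of 10 leukocyte markers PTPRC was at 0.30 and 0.08 TPM and CD3E and TYROBP were listed at 0, but LYZ, lysozyme, was at 1773 and 1744 TPM and made up most of the list's sum of 1785 and 1771 TPM. CD68, a lysosomal protein, was at 8.76 and 27.0 TPM and CD14, a lipopolysaccharide co-receptor, at 2.53 and 0.12 TPM. CD68 shares 93.7% of its words with other genes, so its value is less certain. Of 10 stellate and fibroblast markers ACTA2 was listed at 0 in both controls and DCN was at 0 and 0.14 TPM, while COL1A2 was at 30.9 TPM in Huh7 and listed at 0 in PLC/PRF/5. The list summed to 62.0 and 3.33 TPM. Of 10 neuronal and neuroendocrine markers SYP was at 0.72 and 21.7 TPM and SNAP25 at 4.75 and 35.0 TPM, while TUBB3, the most abundant of the list in Huh7, was at 48.9 and 14.39 TPM and ENO2 at 1.64 and 0.05 TPM. In all, 3 of the 6 in the set were at least 2-fold higher and 2 lower in PLC/PRF/5, and NCAM1 was listed at 0 in both. TUBB3 shares 79.8% of its words with other genes, and without it 3 of 5 were higher and 1 lower. The sources of the markers above 1 TPM in these lists were not tested.

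The difference between the lines was largely the same in both arms, with named exceptions. Of 2090 genes higher in the PLC/PRF/5 control 28 had the opposite sign in the knockdown pair, and of 2214 lower genes 22. IGFBP3 was at 8.73 TPM in Huh7 and 81.4 TPM in PLC/PRF/5 in the controls, and at 40.5 and 20.2 TPM in the knockdown libraries. BAAT, which conjugates bile acids, was at 0.29 and 2.10 TPM and then at 8.06 and 6.26 TPM. Counts of list members past 2-fold also moved with the arm in some lists beside the cholesterol genes. The members higher in PLC/PRF/5 numbered 4 in the controls and 1 in the knockdown pair for epithelial genes, 10 and 6 for urea cycle and amino acid genes, and 2 and 5 for Wnt targets. The cell cycle genes lower there numbered 2 and 4. With 1 library per group, a difference between arms cannot be told apart from variation between cultures.

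**Figure D5:**
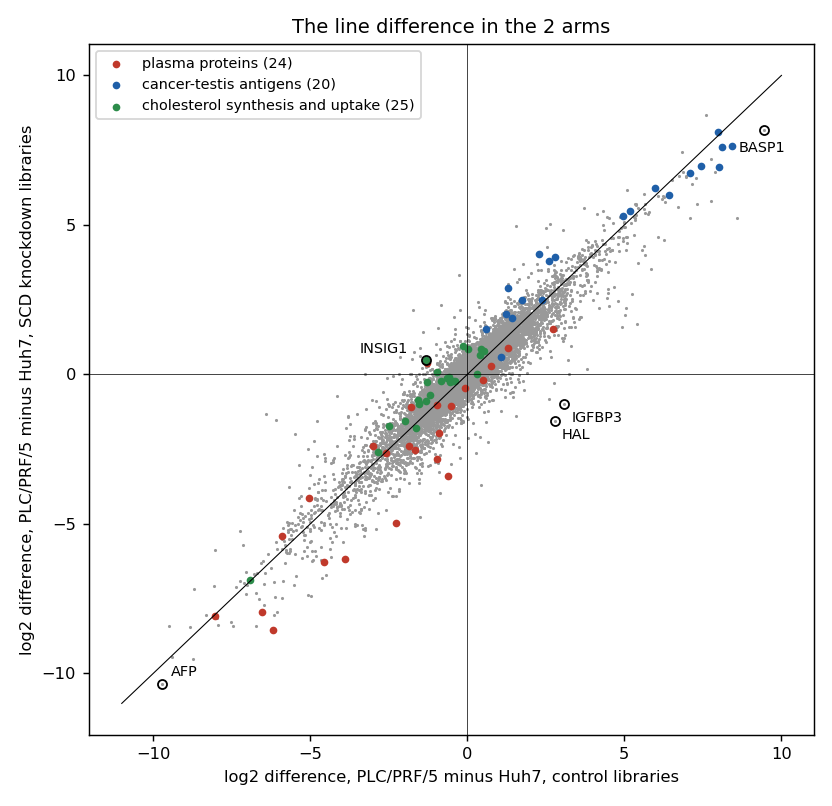
The log2 difference PLC/PRF/5 minus Huh7 in the controls (x axis) against the same difference in the SCD knockdown libraries (y axis) for the 14006 genes, with 3 lists coloured and the diagonal marking equal differences. AFP and BASP1 lie near the diagonal at its ends, INSIG1 lies above it, and HAL and IGFBP3 lie in the opposite quadrant.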

How the data were processed

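The authors deposited 1 table of gene symbols per library with TPM values, rounded to 2 decimals. Reads were processed with cutadapt and RSEM 1.2.21 on hg19, per the submitters' processing notes; for aligner, annotation and strand, nothing is given in the sources used here. RSEM divides reads that match several genes by likelihood, so near-identical copies are uncertain: the share of 31-base words of the longest GENCODE transcript that other genes also hold was computed. Members, lists and tests were chosen with earlier results of these data known. Log2 differences used a pseudocount of 1, and 1 library per group allowed no test of the controls alone. The line was fitted over 4 libraries on log2(TPM + 1) with limma 3.58.1 in R 4.3.3 (variance trend, Benjamini-Hochberg, two-sided, at least 1 TPM in 2 libraries) and the code was tested on simulated data. Depth is unknown, and p-values measure only the spread between these samples, which may be technical. Named genes were the 15 largest differences in each direction that kept 2-fold in the knockdown pair (symbols in no reference table left out), the extremes and most abundant members of each list (up to 4 each way and 2), ALB, AFP, SCD, HNF4A and the marker lists; other genes were named after their values were seen. Alternatives were other pseudocounts, filters, scaling, fits and the knockdown pair. Some members are counted but not reported by name here.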

Additional observations from a re-analysis of the deposited data

Results flagged for a closer look

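In 6 genes the line difference was at least 2-fold in the controls and at least 2-fold the opposite way in the knockdown libraries, a contrast of arms that was not tested because each group has 1 library. HAL had a log2 difference of 2.78 in the controls and -1.55 in the knockdown pair. SAA4, a constitutive serum amyloid protein, had 1.55 and -1.39, from 30.3 and 90.9 TPM in the controls and 175.5 and 66.4 TPM with knockdown. The other 4 were short or histone genes at or below 3.41 TPM, in which 1 library of each pair was listed at 0: HIST1H4J had -1.72 in the controls, SNORA21 -1.42, MIR5047 1.08 and MIR941-1 -1.01.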

How the results depend on the processing

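The counts of genes at least 2-fold higher and lower in the PLC/PRF/5 control stayed within 1.5 times of their values under most other settings. The exception was a pseudocount of 5, which gave 1237 higher and 1219 lower, since it shrinks low genes by construction. Dropping the TPM filter could not change the counts. With a pseudocount of 1, a gene under 1 TPM in both controls cannot reach 2-fold. Counts in the 4-library fit ran from 3396 to 4370 higher and from 3092 to 4077 lower over 7 alternatives. The share of higher among called genes stayed between 47.7% and 51.0% for the fold rule and between 50.5% and 54.6% for the fit, and rescaling by median ratio shifted the median difference by -0.02. Of 280 named genes 200 were at least 2-fold apart. No pseudocount can change the sign of a difference, and rescaling used nearly equal factors for the controls (0.956 and 0.967). Signs under these settings were therefore no check. Of the 280, 24 changed their side of the 2-fold rule with a pseudocount of 5 and 6 with 0.1. In the knockdown pair 40 changed their side of the 2-fold rule and 4 reversed: BAAT to -0.32, GPX2 to -0.25, HAL to -1.55 and IGFBP3 to -0.97; the cause was not tested. Leaving out any library leaves no residual degree of freedom in the fit, so no test was made. No paired analysis was possible because each group holds 1 library, so no replicate number pairs samples across groups. The fit itself compares the lines within each arm, and without the arm term it called 3396 higher and 3116 lower. Depth is unknown, so low values carry no stated precision.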

Other observations

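Imprinted genes were over a wide range of differences, in a list drawn up after values were seen. Of 28 such genes in the set 8 were at least 2-fold higher and 9 lower in PLC/PRF/5 (median 0.17), beside 14.9% and 15.8% of all genes. NDN, SNRPN, SNURF, IPW and PWAR5, among the 8 higher, are neighbours on chromosome 15. SNURF shares its transcript with SNRPN, so these are not independent genes. IGF2, DLK1, GNAS, MEST (194 and 16.4 TPM), PEG10 (734 and 169 TPM) and FAM50B (12.8 and 0.04 TPM) were lower in PLC/PRF/5, and NDN, SNRPN, IPW and PHLDA2 (11.4 and 29.5 TPM) were higher. The immediate neighbours of GNAS in the set, NPEPL1 (19.1 and 2.73 TPM) and NELFCD (141 and 82.7 TPM), had smaller differences than GNAS, and CTSZ, the next gene but for NELFCD, was listed at 0 in the PLC/PRF/5 control.

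HOX genes, which record position along the body axis, differed by cluster. All 5 HOXB genes in the set entered it through PLC/PRF/5 alone and were at least 2-fold higher there. HOXB4 was listed at 0 in Huh7 and was at 6.64 TPM in PLC/PRF/5, and HOXB7 was at 0.37 and 11.5 TPM. All 3 HOXD genes entered through Huh7 alone and were at least 2-fold lower, with HOXD1 at 23.02 and 0.03 TPM. A gene listed at 0 in 1 line that reaches 1 TPM in the other is 2-fold apart by the rule. The HOXB and HOXD counts were therefore largely set by entry. In HOXA, HOXA5 (0.98 and 12.6 TPM) and HOXA13 (0.28 and 17.2 TPM) were higher and HOXA9 (5.12 TPM in Huh7, listed at 0 in PLC/PRF/5) was lower. Of 8 HOXC genes 4 were at least 2-fold lower and 1 higher (median -0.80): HOXC4 was at 7.60 and 2.08 TPM, HOXC13 at 9.36 and 27.7 TPM, and HOXC10, the most abundant, at 53.2 and 46.0 TPM. This list was also chosen after values were seen.

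S100 and annexin genes, calcium-binding proteins, split within the family: S100A6 (209 and 0.19 TPM), S100A11 and ANXA6 (183 and 0.31 TPM) were lower in PLC/PRF/5, and S100A14 (1.5 and 166 TPM), S100A16 (54.1 and 517 TPM) and ANXA1 (18.3 and 208 TPM) higher. Of 21 in the set 6 were at least 2-fold higher and 6 lower, beside 14.9% and 15.8% of all genes. ANXA2 (653 and 726 TPM) was alike in level. This list, too, was chosen after values were seen.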
